A study of Mus musculus with 18 samples.

Results

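The kinesins are microtubule motor proteins, and 37 genes of the family, carried by 99 probe sets, were followed through the differentiation of mouse ES cells into motor neurons. Members were taken by symbol alone: every probe set whose single gene symbol is Kif, a number and at most a further letter and digit was used, out of 45037 probe sets that stand for 18193 genes with a symbol of their own. Where a gene had several probe sets, its value is that of the brightest, by the mean of the 18 arrays. By their known roles, 12 of the genes are mitotic kinesins, 15 are axonal and vesicle transport kinesins, 5 belong to the cilium or centriole and 5 have other roles. The listed genes Kif19a and Kif25 were not analysed here.

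A kinesin has a motor domain that steps along microtubules or takes them apart, and a tail that binds its load. Mitotic kinesins are made for cell division: they hold the spindle poles apart, move and align chromosomes, and bundle the midzone microtubules at which the daughter cells separate. Neurons after their last division use other members to carry vesicles, organelles and RNA along the axon and dendrites, so the same gene family serves both the dividing precursor and the neuron that it becomes.

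RNA was measured on 18 Affymetrix mouse arrays, all from the HBG3 mouse ES cell line. The stages were ES cells at day 0 (3 arrays), aggregates without patterning factors at day 2 (4 arrays), day 2 aggregates labelled with 8 h of retinoic acid, RA (2 arrays), and aggregates at day 3, day 4 and day 7 (3 arrays each). RA and a hedgehog agonist were supplied from day 2, so the day 3, day 4 and day 7 cultures had received both. For the 8 h arrays the labels give RA only, and these arrays have no untreated control of the same age. The ES cells are amplified on feeder cells and moved to gelatin for differentiation. Whole cultures of a single line were measured, no sorting step is named, and the methods describe biological triplicates. The deposited values are log2 signals made with GCRMA, so a difference of 1 is a 2-fold change. Signals under 4 were treated as background, which on each array was the case for 55.2% to 56.9% of probe sets. Probe sets differ in their response to RNA, so levels are compared between stages and not between genes.

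Stages were compared with a limma model of 6 stage means over all 18 arrays, and p-values were adjusted by the Benjamini-Hochberg method over the 45037 probe sets. A kinesin was called higher or lower where its adjusted p was under 0.01 and it differed 2-fold or more. The labels' cell types were read from their markers. The summed signal of 5 ES cell genes ran from 14.98 to 15.30 (log2, range over arrays) at day 0 and from 5.87 to 6.37 at day 7. That of 6 neuronal genes ran from 11.9 to 12.3 at day 4 and from 15.2 to 15.3 at day 7. In ES cells at day 0 it already ran from 12.1 to 12.6, where Stmn2 alone gave 12.38, 12.23 and 11.75. Of 6 motor neuron markers, 1 (Chat) was under the background level on every day 7 array. That of 5 proliferation genes ran from 14.3 to 14.8 at day 4 and from 12.8 to 13.0 at day 7, so RNA of dividing cells was still measured at day 7. That of 5 glial genes ran from 7.91 to 8.44 at day 4 and from 10.0 to 10.2 at day 7, with Gfap and Mog under the background level. The neuronal, proliferation and glial lists changed from day 4 to day 7, the step at which most called kinesins changed. The ES cell list had largely fallen by day 4, at 6.19 to 8.13. At day 3 the neuronal list had run from 9.44 to 9.79, so it had also risen from day 3 to day 4. The motor neuron list ran from 4.91 to 5.57 at day 3 and from 10.6 to 11.3 at day 4. The part of these lists in the kinesin changes was not tested. In whole cultures, fewer cells of a type and less RNA per cell cannot be told apart.

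The promoters of the mitotic members are shown first, since genes of mitosis are known to carry a cell cycle element near their start, read as TTTGAA and less often as TTCGAA, and CCAAT boxes beside it. RefSeq promoter windows of build GRCm38.p6, from 250 bases before the start to 50 bases from it, were matched by symbol for 31 of the 37 genes, and Kif5a, Kif5b, Kif13b, Kif20a, Kif21b and Kif28 had none. Below are stretches around the start of 5 mitotic kinesins with a match close to it, and of 2 transport kinesins higher at day 7. These 2, Kif3c and Kif5c, have neither the element nor a CCAAT box in their windows. Kif1a and Kif3b, which also rose from day 4 to day 7, have a match in a window and are not shown. The stretches run 5′ to 3′ on the gene's strand, beginning 70 bases before the start. Capitals mark these letters on either strand. On the other strand the element reads TTCAAA and the box reads ATTGG.
Kif11 (chr19:37376312-37376411, plus strand): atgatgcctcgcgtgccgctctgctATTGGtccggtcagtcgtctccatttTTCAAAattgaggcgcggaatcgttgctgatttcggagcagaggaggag
Kif15 (chr9:122951011-122951110, plus strand): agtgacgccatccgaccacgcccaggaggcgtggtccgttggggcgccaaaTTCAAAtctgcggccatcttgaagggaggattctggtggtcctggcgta
Kif18b (chr11:102925105-102925194, minus strand): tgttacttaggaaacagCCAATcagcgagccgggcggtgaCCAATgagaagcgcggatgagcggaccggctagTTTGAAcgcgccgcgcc
Kif23 (chr9:61946781-61946869, minus strand): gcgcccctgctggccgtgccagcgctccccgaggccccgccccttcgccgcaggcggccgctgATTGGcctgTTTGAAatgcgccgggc
Kif4 (chrX:100625995-100626094, plus strand): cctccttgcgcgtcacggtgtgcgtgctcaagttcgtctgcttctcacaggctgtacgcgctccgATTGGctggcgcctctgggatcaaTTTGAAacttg
Kif3c (chr12:3365062-3365161, plus strand): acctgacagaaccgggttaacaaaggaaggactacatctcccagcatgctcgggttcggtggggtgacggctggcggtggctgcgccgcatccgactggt
Kif5c (chr2:49619216-49619315, plus strand): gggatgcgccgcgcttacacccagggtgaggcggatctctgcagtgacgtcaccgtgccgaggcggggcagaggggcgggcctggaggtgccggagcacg

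The letters TTTGAA, on either strand and counted once per gene, lay in the windows of 9 of 11 mitotic kinesins (81.8%) and of 1 of 11 transport kinesins (9.09%), against 20.2% of the 27025 genes with a window. Within 30 bases of the start they were found in 7 of the 11 mitotic kinesins (Kif4, Kif11, Kif15, Kif18b, Kif20b, Kif22 and Kif23) and in 0 of the 11 transport kinesins, against 3.39% of all genes. They were also there in 1 of the 4 other kinesins with a window, Kif26b, which was called higher from day 4 to day 7. The distance of 30 bases was chosen after the matches had been seen. The rarer form TTCGAA was in the window of 1 kinesin, the centriole gene Kif24, against 1.8% of all genes. CCAAT was in the windows of 7 of 11 mitotic (63.6%) and 3 of 11 transport kinesins (27.3%), against 41.1% of all genes. The windows of Kif14 and Kif2c lie 1547 and 3852 bases inside the RefSeq span of their genes, those of Kif3a, Kif26a and Kif27 lie 1668, 2234 and 9798 bases inside theirs, and 1 of the 2 windows of Kif1a lies 19559 bases inside. This window holds the only match of TTTGAA among the transport kinesins, and the Kif1a window nearer the gene's start has 0. The windows of Kif14 and Kif2c, which also lie inside their genes, hold 1 TTTGAA match each. Both genes are among the 9 mitotic kinesins counted with a match. A match is a run of letters in these windows and not a measured site.

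Of the 37 kinesins, 25 were at or above the background level on all 18 arrays and 4 on some of them. The remaining 8 lay under it on every array: Kif2b, Kif14, Kif17, Kif6, Kif9, Kif27, Kif12 and Kif28. They stay in each count below, and none of them was called in the main fit. In the plot of all members by array, the step from day 4 to day 7 is the one at which most called members change.

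**Figure D1:**
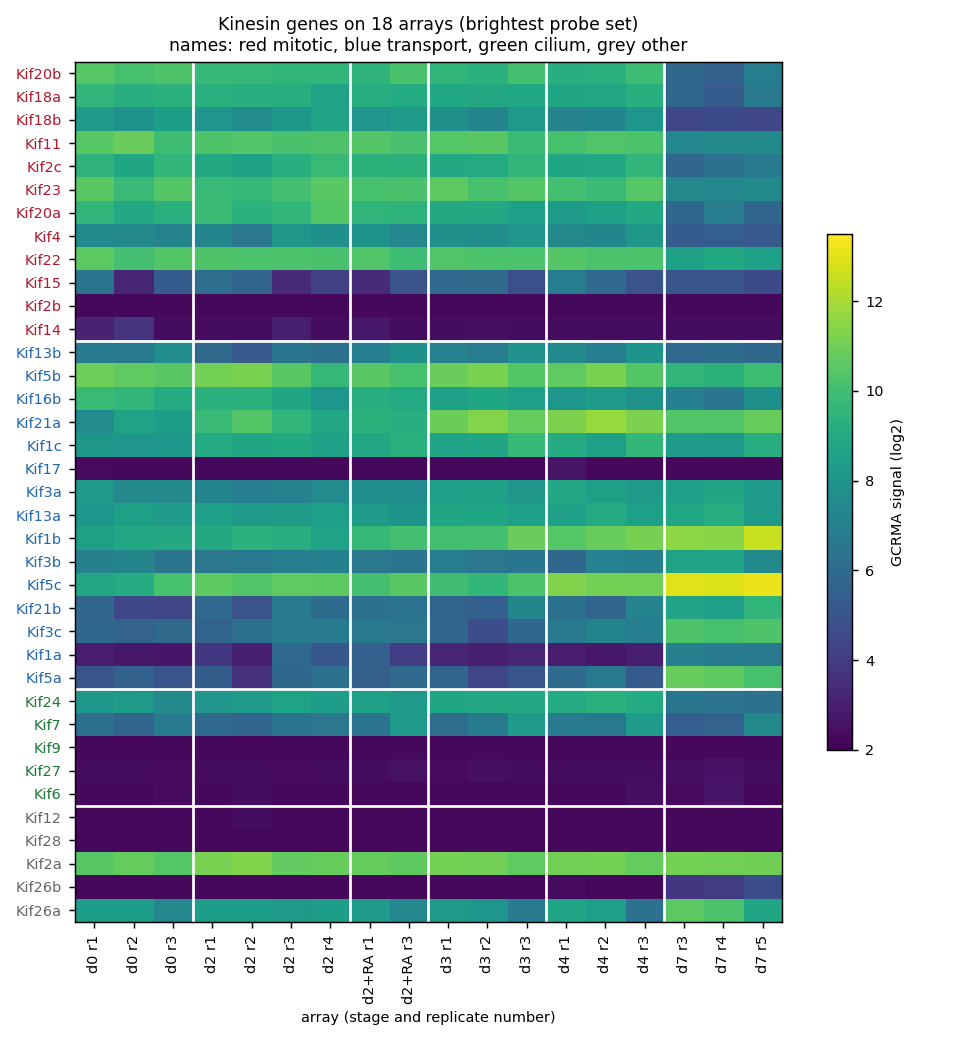
Log2 GCRMA signal (colour) of the 37 kinesin genes (rows, by role and then by their change from day 4 to day 7) on the 18 arrays (columns, by stage; d2+RA is day 2 with 8 h of RA). Colours are to be compared along a row; 9 of 12 mitotic members darken at day 7, 6 of 15 transport members brighten, and 8 members stay under a signal of 4 on every array.

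Between day 4 and day 7, 17 of the 37 kinesins were called, 7 higher and 10 lower, where 15.4% of all genes were called, 8.81% higher and 6.58% lower. Among the called members of the mitotic and transport lists, the direction went with the role. Of the 12 mitotic kinesins, 9 fell and 0 rose, with a median log2 change of -2.55 over the list and 0 over all genes. Of the 15 transport kinesins, 6 rose and 0 fell, with a list median of 0.05. Without regard to the calls, 8 of the 15 went up and 7 went down. Kif24 of the centriole fell, and Kif26b rose from under the background level. In a fit of the day 4 and day 7 arrays alone, 9 were called, 4 higher and 5 lower. The transport kinesin Kif13b was called lower with the replicate number as a block, with dim probe sets left out and with quantile normalization.

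Against ES cells at day 0, 20 kinesins were called at day 7, 9 higher and 11 lower, where 28.2% of all genes were called, 14.3% higher and 13.9% lower. The same 9 mitotic kinesins fell, with a list median of -2.93. Of the transport kinesins 8 rose and 1 (Kif16b) fell, with a list median of 1.39, and the median over all genes was 0. In a fit of the day 0 and day 7 arrays alone, 15 were called, without Kif16b, Kif21a, Kif24, Kif26b and Kif3b. This comparison shares its day 7 arrays with the one against day 4, so the counts are not independent of each other. The summed signal of 6 feeder or mesenchymal markers was higher at day 0, at 9.03 to 11.8 against 6.21 to 6.52 at day 7. These markers did not move together. At day 7, 2 of the 6 were called lower and 0 higher. Col1a1 gave 8.76, 9.62 and 11.58 at day 0, while Lum was under the background level on every array. Dcn had a mean of 4.42 at day 0 and of 4.68 at day 7. The part of feeder or mesenchymal RNA in the kinesin values was not tested.

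The mitotic kinesins kept much the same level from ES cells to day 4 and then dropped. Over the stages before day 7, the stage means of the 9 members that fell spanned from 0.18 (Kif11) to 1.22 (Kif20a) on the log2 scale, while the fall to day 7 was 1.62 to 3.42. In each of the 9, every day 7 array was below every one of the 15 earlier arrays. With Kif24 and Kif16b this held for 11 of the 37 kinesins, against 10.3% of all genes. At day 7 the 9 still had signals of 4.43 to 9.00, above the background level on every array. Their summed signal (with Kif2b, Kif14 and Kif15) ran from 12.5 to 13.1 over the 15 earlier arrays and from 10.0 to 10.3 at day 7.

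**Figure D2:**
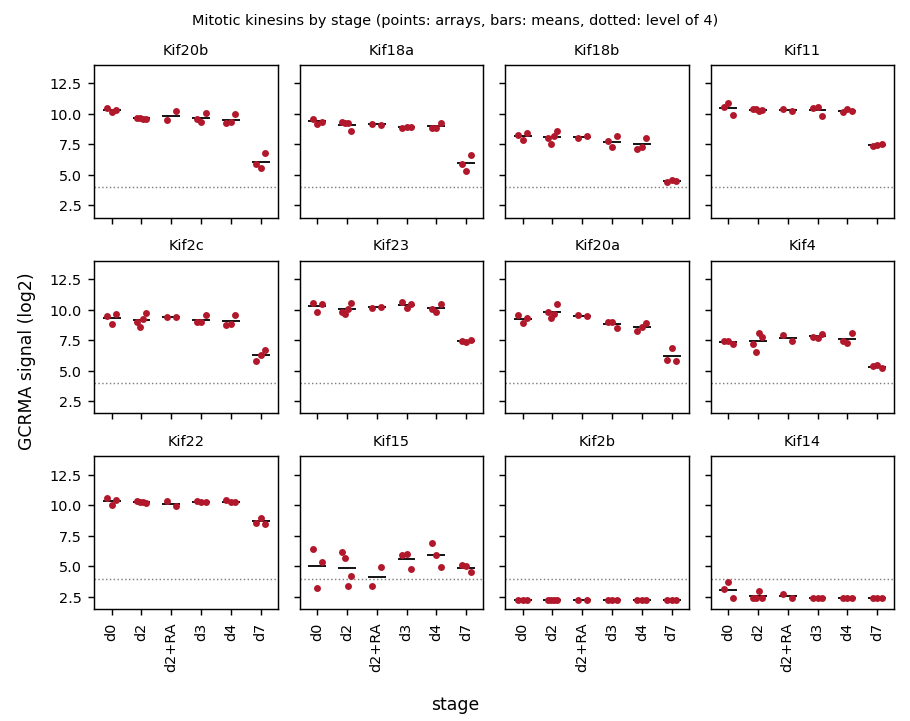
Log2 GCRMA signal of the 12 mitotic kinesins by stage, with a point for each array, a bar at the stage mean and a dotted line at the background level of 4. In the top 9 panels (Kif20b to Kif22) the 3 day 7 points lie below all earlier points, while Kif15 scatters from 3.19 to 6.89 over the arrays and Kif2b and Kif14 stay near the floor.

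Kif11, known as Eg5, is the motor that pushes the spindle poles apart. Its signals were 10.13, 10.36 and 10.26 at day 4 and 7.37, 7.40 and 7.49 at day 7. The day 7 arrays lay close together and under every day 4 array, a 7.11-fold fall (log2 change -2.83 ± 0.21 SE, limma adjusted p = 6.05e-07). Another probe set of Kif11 fell from a mean of 8.26 to 5.07 and was called. A further one fell less, from 8.18 to 6.65, and was not called. Kif15 can take over part of the work of Kif11 in spindle assembly. It was the single mitotic member above background that was not called. It gave 6.89, 5.95 and 4.93 at day 4 and 5.09, 5.04 and 4.56 at day 7, and these ranges overlapped. The log2 change was -1.02 ± 0.88 (limma adjusted p = 0.565). On the other arrays it went from 3.19 to 6.43 with arrays of the same stage far apart, so a fall of the size seen in Kif11 could not be told from none on its only probe set.

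Members that act on chromosomes and the plus ends of microtubules fell by similar amounts. Kif18a, which dampens the swing of chromosomes at the metaphase plate, gave 8.80, 8.86 and 9.27 at day 4 and 5.91, 5.34 and 6.66 at day 7. The groups were well apart and the fall was 8.04-fold (-3.01 ± 0.27, limma adjusted p = 3.75e-06). Its relative Kif18b, which shortens astral microtubules, gave 7.12, 7.28 and 8.05 at day 4 and 4.43, 4.56 and 4.47 at day 7. All 3 day 7 arrays lay close to the background level, and the fall was 8.00-fold (-3.00 ± 0.30, limma adjusted p = 8.08e-06). Kif2c, or MCAK, takes microtubules apart at the kinetochore to correct wrong attachments. It gave 8.75, 8.86 and 9.58 at day 4 and 5.80, 6.29 and 6.67 at day 7. The groups did not overlap, and the fall was 7.01-fold (-2.81 ± 0.33, limma adjusted p = 4.21e-05).

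The chromokinesins Kif4 and Kif22 bind chromosome arms and push them from the poles. On the brightest probe set of each gene they had the smallest falls among the called mitotic members, 4.81-fold for Kif4 (-2.27 ± 0.33) and 3.07-fold for Kif22 (-1.62 ± 0.16). Kif22 gave 10.42, 10.26 and 10.24 at day 4 and 8.58, 9.00 and 8.48 at day 7, without overlap. Its 15 arrays before day 7 ran from 9.91 to 10.61. On its other probe sets Kif22 fell further, from 9.61 to 7.06 and from 8.82 to 6.46 in the means of day 4 and day 7. Both of these falls were called.

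Members that build the midzone and end division included the largest fall of the family. Kif20b, needed for the last steps of cytokinesis, gave 9.24, 9.30 and 9.95 at day 4 and 5.86, 5.57 and 6.81 at day 7. Every day 7 array was lower than every day 4 array, with a 10.7-fold fall (-3.42 ± 0.31, limma adjusted p = 3.66e-06). From day 0 the fall was 18.9-fold, since the ES cell arrays were higher still at 10.50, 10.14 and 10.33. Kif23, the motor of the centralspindlin complex, gave 10.04, 9.84 and 10.46 at day 4 and 7.41, 7.37 and 7.47 at day 7. These day 7 arrays were nearly alike, and the fall was 6.47-fold (-2.69 ± 0.25, limma adjusted p = 4.13e-06).

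Kif20a carries the Aurora B kinase complex to the midzone and had the widest span of stage means before day 7 among the 9 mitotic members that fell. Its day 2 arrays gave 9.83, 9.34, 9.63 and 10.42, its day 3 arrays 8.98, 8.96 and 8.50, and its day 4 arrays 8.27, 8.55 and 8.92. The day 2 arrays all lay above the later ones, yet the change to day 3 was not called (-0.99 ± 0.29, limma adjusted p = 0.0586). At day 7 it gave 5.88, 6.84 and 5.82, a 5.28-fold fall from day 4 (-2.40 ± 0.31, limma adjusted p = 9.6e-05).

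The transport kinesins differed among themselves. The 6 that rose from day 4 to day 7 did so by 3.10-fold to 23.7-fold and had every day 7 array above all 15 earlier arrays, while the other 9 changed by -1.49 to 1.04 on the log2 scale. With Kif1b, Kif26a and Kif26b, the day 7 arrays were above all earlier arrays in 9 of the 37 kinesins, against 12.4% of all genes.

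**Figure D3:**
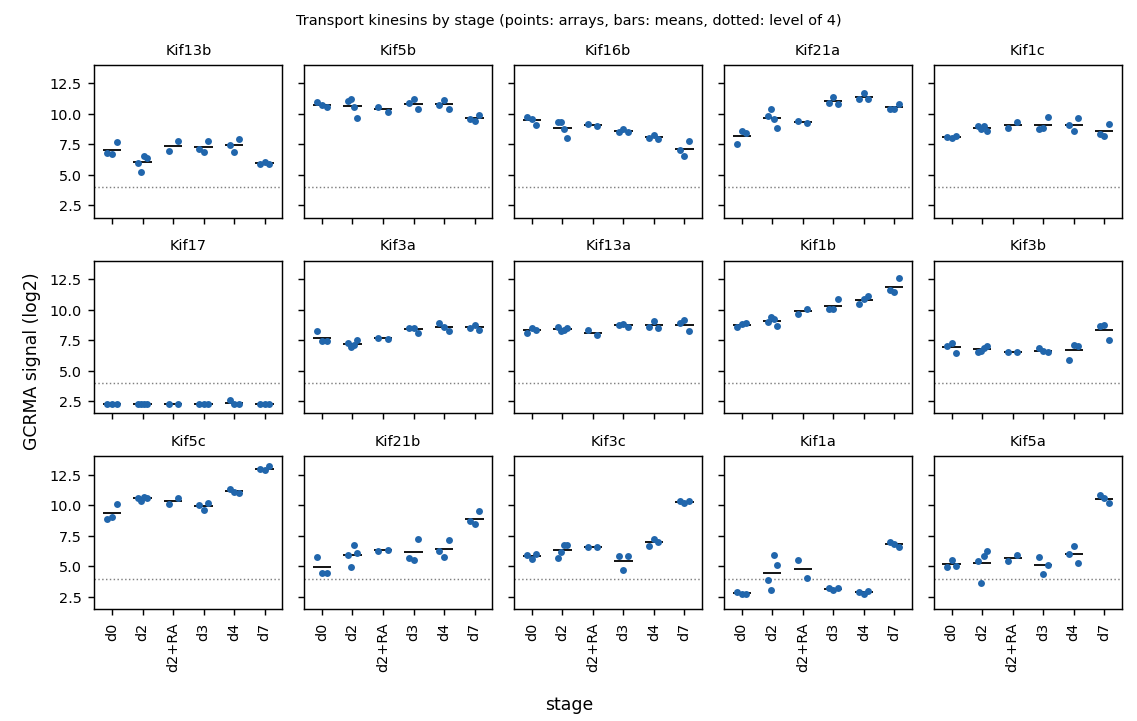
Log2 GCRMA signal of the 15 axonal and vesicle transport kinesins by stage, with a point for each array, a bar at the stage mean and a dotted line at the background level of 4. Kif3b, Kif5c, Kif21b, Kif3c, Kif1a and Kif5a step up at day 7, Kif1b and Kif21a already stand higher at day 3 than at day 0, Kif16b is lowest at day 7, and the 4 day 2 points of Kif1a run from 3.03 to 5.94.

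The Kif5 genes encode the heavy chains of conventional kinesin, and their 3 members went separate ways. Kif5a, a neuronal heavy chain, gave 6.01, 6.66 and 5.26 at day 4 and 10.85, 10.64 and 10.15 at day 7. No earlier array came above 6.66, and the rise of 23.7-fold (4.57 ± 0.59, limma adjusted p = 9.04e-05) was the largest of the family. Kif5c, also mainly neuronal, was well above background in ES cells already on its brightest probe set, at 8.87, 9.06 and 10.14. It gave 10.63, 10.37, 10.68 and 10.60 at day 2, 9.98, 9.60 and 10.22 at day 3, 11.33, 11.11 and 11.04 at day 4 and 12.94, 12.90 and 13.18 at day 7. The last step was 3.60-fold (1.85 ± 0.27, limma adjusted p = 0.000258) and the whole course 12.6-fold (3.65 ± 0.27, adjusted p = 2.63e-07). At day 0 another probe set of Kif5c gave 3.17, 5.64 and 4.84, and a dimmer one gave 2.24 on each array. In all 3 the rise from day 0 to day 7 was called. Kif5b, the heavy chain found in most tissues, gave 10.70, 11.17 and 10.41 at day 4 and 9.57, 9.37 and 9.93 at day 7. All day 7 arrays were lower, but the change was not called (-1.14 ± 0.36, limma adjusted p = 0.0408). It was not called against day 0 either (-1.12, adjusted p = 0.03). In another of its 6 probe sets the fall was called (from 9.12 to 7.94, adjusted p = 0.00171), and in 3 further bright ones it was 0.08 to 0.43 and not called.

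Kif3 motors are made of Kif3a with either Kif3b or Kif3c, and the form with Kif3b also drives transport into cilia. Kif3c, a neuronal subunit, gave 6.70, 7.20 and 6.97 at day 4 and 10.33, 10.16 and 10.33 at day 7. The day 7 arrays were nearly alike and above all others, a 9.95-fold rise (3.32 ± 0.32, limma adjusted p = 5.52e-06). At day 3 it had given 5.81, 4.73 and 5.89, and the step from there to day 4 was not called (1.48 ± 0.32, adjusted p = 0.0368). Kif3b gave 5.89, 7.09 and 6.98 at day 4 and 8.64, 8.73 and 7.49 at day 7, without overlap. Its 3.10-fold rise was nearer the threshold (1.63 ± 0.36, limma adjusted p = 0.00521) and was lost when day 4 replicate 1, day 7 replicate 3 or day 7 replicate 4 was left out (adjusted p = 0.0220, 0.0271 and 0.0271).

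Kif3a was the single kinesin called between neighbouring stages before day 7. It gave 7.22, 6.94, 7.09 and 7.53 at day 2 and 8.51, 8.52 and 8.08 at day 3. Every day 3 array was higher, by 2.25-fold on average (1.17 ± 0.22, limma adjusted p = 0.00408). The call was lost in 5 of 7 fits that left out an array, with an adjusted p of up to 0.0245. At day 4 it gave 8.89, 8.55 and 8.26 and at day 7 8.51, 8.74 and 8.36, so this probe set stayed level at the last step (-0.03 ± 0.23). The other 3 probe sets of Kif3a read differently. They rose at day 7 from 8.42 to 10.36, from 7.02 to 9.01 and by 1.98 to 7.98 in their stage means, with limma adjusted p of 0.000509, 0.0018 and 0.000554. Which of these readings stands for the whole of the Kif3a transcripts was not tested.

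The Kif1 genes carry synaptic vesicle precursors and other organelles. Kif1a, the main vesicle precursor motor of axons, gave 2.92, 2.75 and 2.97 at day 4 and 7.01, 6.80 and 6.62 at day 7. All day 4 arrays were under the background level, so the rise was at least 7.02-fold (limma adjusted p = 0.000254). Of its day 2 arrays, replicates 1 and 2 gave 3.84 and 3.03, and replicates 3 and 4 gave 5.94 and 5.12. The day 2 arrays formed the same pairs over all probe sets, with an SD of the difference between arrays of 0.401 (replicates 1 and 2) and 0.440 (3 and 4) within pairs and of 0.699 to 0.835 across them. The RA arrays gave 5.54 and 4.09. It was back under the background level at day 3, with 3.24, 3.03 and 3.23, but neither the step up from day 0 nor the step down to day 3 was called (limma adjusted p = 0.103 and 0.202). The other probe set of Kif1a that reached the background level went from a mean of 2.85 at day 4 to 4.05 at day 7 and was not called (limma adjusted p = 0.194). Its day 7 arrays gave 3.74, 3.63 and 4.77, under day 2 replicates 3 and 4 at 5.94 and 5.41.

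Kif1b, known for vesicle precursors and mitochondria, had a more gradual course. It gave 8.53, 8.83 and 8.92 at day 0, 8.98, 9.37, 9.21 and 8.68 at day 2, 9.65 and 10.08 after 8 h of RA, 10.01, 10.05 and 10.88 at day 3, 10.45, 10.85 and 11.15 at day 4, and 11.56, 11.46 and 12.54 at day 7. Each stage mean was above that before it. The whole rise was 8.55-fold (3.10 ± 0.32, limma adjusted p = 5.01e-06), while the single steps from day 2 to day 3 (1.25 ± 0.30, adjusted p = 0.0188) and from day 4 to day 7 (1.04 ± 0.32, adjusted p = 0.0345) were not called. Its probe sets split at the last step. Of the next bright ones, 1 went from a mean of 9.85 to 11.26, while others went from 9.55 to 9.39 and from 8.05 to 8.29, none of them called. A pair of dim ones was called higher. Kif1c, a vesicle motor of many tissues, gave 8.11, 8.00 and 8.15 at day 0, 9.07, 8.59 and 9.62 at day 4 and 8.35, 8.21 and 9.18 at day 7, with no call in any comparison.

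**Figure D4:**
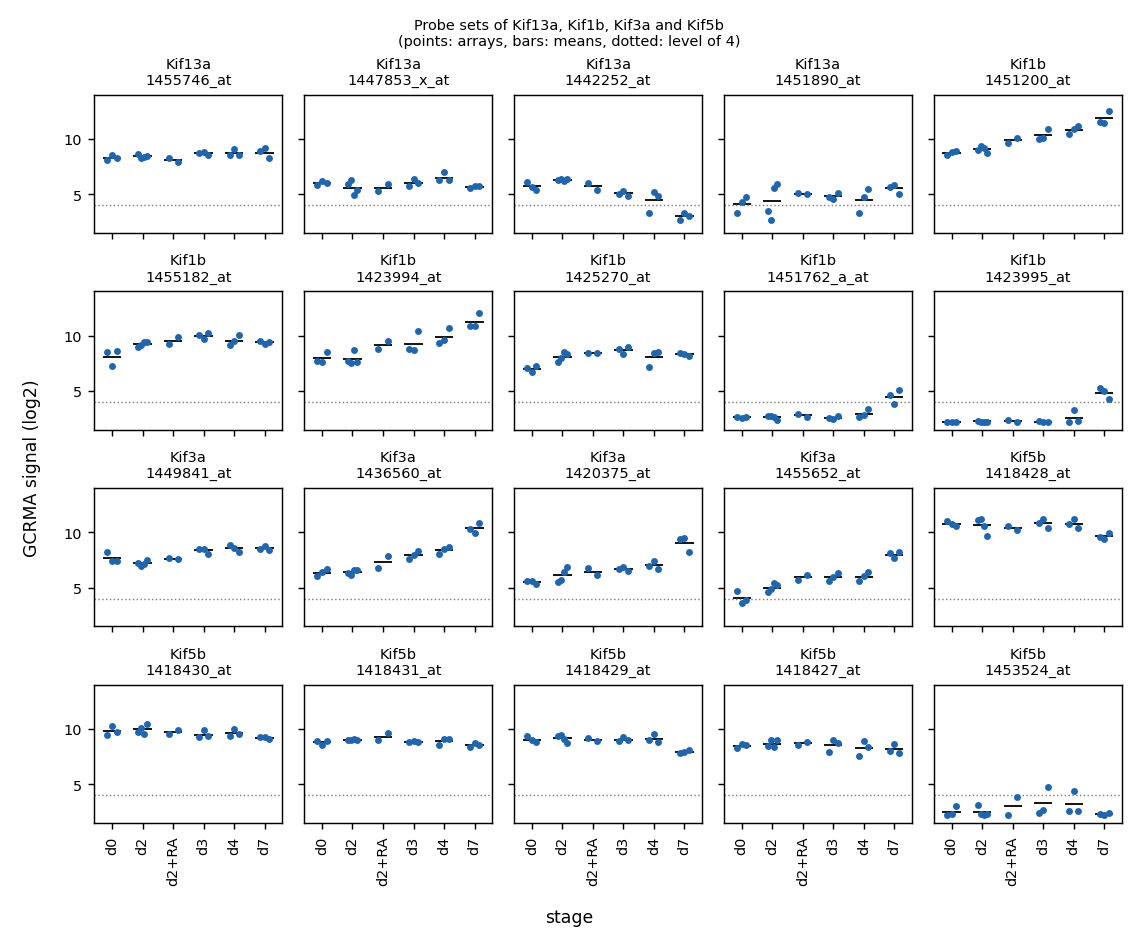
Log2 GCRMA signal by stage of each probe set of Kif13a, Kif1b, Kif3a and Kif5b with at least 2 arrays at the background level of 4 (dotted line), with a point for each array and a bar at the stage mean. The probe set that gives the value of Kif3a is flat from day 4 (8.57) to day 7 (8.54) while its 3 other probe sets rise, and for Kif13a a dimmer probe set falls to a mean of 3.00 while the brightest is flat.

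Kif21b and Kif21a are close relatives that regulate microtubule growth in neurons, and they had different courses. Kif21b gave 6.29, 5.77 and 7.15 at day 4 and 8.69, 8.50 and 9.51 at day 7. The groups did not overlap, and the rise was 5.65-fold (2.50 ± 0.57, limma adjusted p = 0.00655). This call was lost in 5 of 6 fits that left out an array, every one but that without day 4 replicate 3, with an adjusted p of up to 0.0347. Against day 0, where it gave 5.80, 4.48 and 4.46, the rise was 15.9-fold (3.99 ± 0.57, adjusted p = 0.000101). Kif21a gave 7.53, 8.62 and 8.41 at day 0, 9.80, 10.41, 9.55 and 8.85 at day 2, 10.91, 11.37 and 10.79 at day 3, 11.23, 11.70 and 11.24 at day 4, and 10.36, 10.36 and 10.84 at day 7. Its stage mean was highest at day 4. Its total rise was called (2.33 ± 0.36, limma adjusted p = 0.000196), and its lower day 7 level was not (-0.87 ± 0.36, adjusted p = 0.124). Its other probe set above background had its highest mean at day 7, at 8.25 against 7.89 at day 4.

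Of the endosome motors, only Kif16b was called. This motor, which places early endosomes in the cell, gave 9.73, 9.60 and 9.09 at day 0, 8.52, 8.79 and 8.53 at day 3, 8.05, 8.29 and 7.92 at day 4, and 7.02, 6.51 and 7.76 at day 7. It was the single transport kinesin to fall against ES cells, by 5.20-fold (-2.38 ± 0.35, limma adjusted p = 0.000129), and the last step alone was not called (-0.99 ± 0.35, adjusted p = 0.0694). Kif13b gave 7.47, 6.91 and 7.97 at day 4 and 5.92, 6.07 and 5.88 at day 7, without overlap and without a call (-1.49 ± 0.40, limma adjusted p = 0.0176). Its relative Kif13a gave 8.56, 9.05 and 8.52 at day 4 and 8.86, 9.16 and 8.26 at day 7, with overlap. A dimmer probe set of Kif13a fell from a mean of 5.72 at day 0 to 3.00 at day 7 (limma adjusted p = 0.000112). Kif17, a dendritic motor, was under the background level throughout.

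Of the cilium and centriole kinesins, Kif24 and Kif7 were above background. Kif24 sits at the centriole and holds back the outgrowth of a cilium. It gave 9.09, 9.32 and 9.07 at day 4 and 6.48, 6.37 and 6.35 at day 7, and the tight groups gave a 6.77-fold fall (-2.76 ± 0.20, limma adjusted p = 4.52e-07). In ES cells it had given 8.08, 8.25 and 7.41, below every day 4 array, and its fall against day 0 was 2.86-fold (adjusted p = 5.14e-05). Kif7, a regulator of hedgehog signaling at the tip of the cilium, differed between replicates. Replicate 3 stood apart from the other arrays of its stage after RA (8.18 against 6.38), at day 3 (8.34 against 6.13 and 6.69) and at day 4 (8.35 against 6.70 and 6.64). At day 7 replicate 3 gave the lowest value (5.43), and replicate 5 stood apart (7.40 against 5.43 and 5.61). Kif7 was not called in any comparison (day 7 against day 4, -1.08, limma adjusted p = 0.387).

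Among the other kinesins, Kif2a, which shortens microtubules and trims axon branches, had nearly the same level at both stages. It gave 11.04, 11.08 and 10.80 at day 4 and 11.09, 11.03 and 10.99 at day 7, where its relative Kif2c fell 7.01-fold. The change of Kif2a was 0.07 (limma adjusted p = 1). A dimmer probe set of Kif2a fell from 7.28 at day 0 to 5.37 at day 7 (adjusted p = 0.000745). Kif26a, a kinesin without motor activity, gave 8.78, 8.48 and 6.31 at day 4 and 10.60, 10.26 and 8.79 at day 7. All day 7 arrays were the higher ones, but replicate 3 of day 4 and replicate 5 of day 7 lay far under the rest of their groups and the change was not called (2.03 ± 0.66, limma adjusted p = 0.049). Kif26b gave 2.33, 2.24 and 2.24 at day 4 and 3.83, 4.05 and 4.76 at day 7. It was called (adjusted p = 1.51e-06), but with day 4 at the background level the rise is at least 1.16-fold, and it was not called once values under that level were raised to it.

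**Figure D5:**
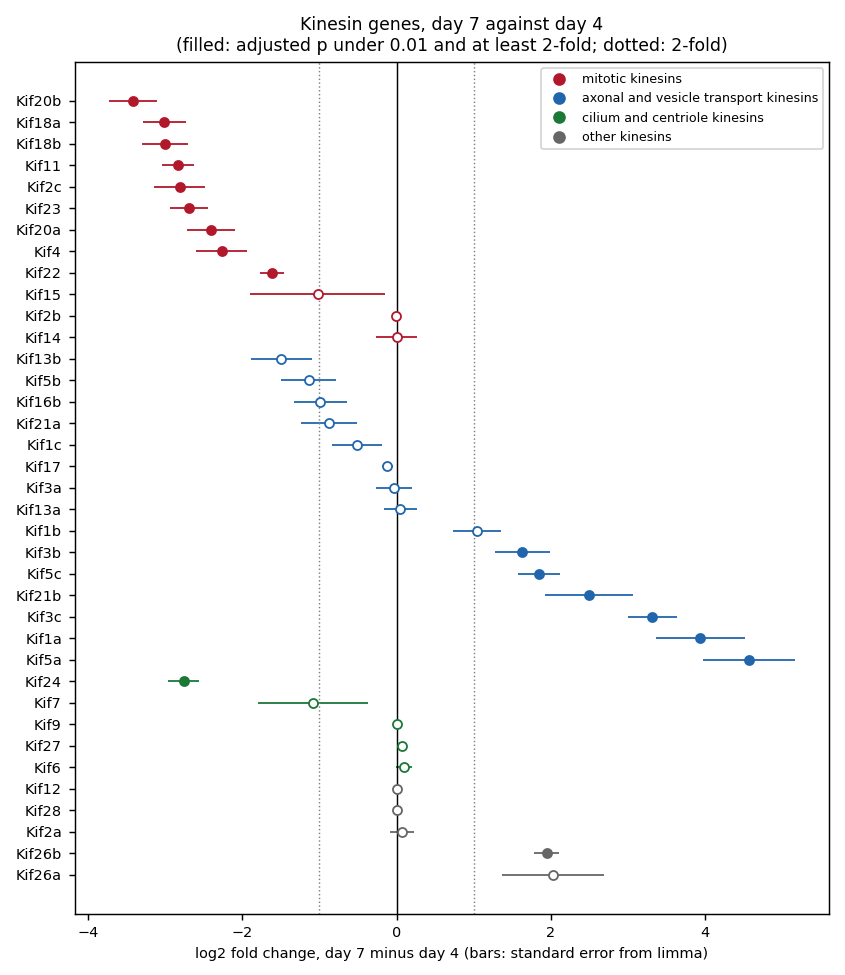
Log2 fold change of the 37 kinesins from day 4 to day 7 (horizontal axis, with the standard error from limma), by role (colour) and ordered within it, with filled points for called genes and dotted lines at 2-fold. The 9 called mitotic members lie between -3.42 and -1.62, and the 6 called transport members between 1.63 and 4.57.

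In the steps before day 7 few kinesins were called. From day 0 to day 2, 0 of 37 kinesins were called by limma, where 3.83% of all genes were (1.67% higher and 2.15% lower). An unadjusted p under 0.05 was found for 10. The share of all genes at that cut was not counted, here or in the later steps. The largest of the 10 were Kif1a (above), Kif21a (1.46 ± 0.34, adjusted p = 0.0228) and Kif5c (1.21 ± 0.25, adjusted p = 0.013). Kif13b lay lower on every day 2 array than on every day 0 array, at 5.97, 5.20, 6.54 and 6.34 against 6.81, 6.68 and 7.65 (-1.04 ± 0.37, adjusted p = 0.164). After 8 h of RA, 0 kinesins were called by limma, where 0.368% of all genes were (0.308% higher and 0.0605% lower), with 2 at an unadjusted p under 0.05. These were Kif13b, at 6.98 and 7.77 (1.36 ± 0.42, adjusted p = 0.557), and Kif1b (0.81 ± 0.34, adjusted p = 1). With 2 RA arrays, a modest change could not be told from none.

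From day 2 to day 3, 1 kinesin was called, Kif3a, where 6.62% of all genes were, 3.4% higher and 3.22% lower. Replicate numbers paired these arrays. With the replicate as a block over all arrays 3 were called, Kif3a, Kif1b and Kif13b. That fit also held the day 0 and RA arrays, which the numbers did not pair with day 2. With the block in a fit of days 2 and 3 alone, 0 were called and Kif3a was lost. In the main fit, Kif21a (1.37 ± 0.34, limma adjusted p = 0.0229) and Kif13b (1.24 ± 0.37, adjusted p = 0.063) were not called. From day 3 to day 4, 0 kinesins were called by limma, where 1.22% of all genes were (0.506% higher and 0.715% lower), with 2 at an unadjusted p under 0.05. These were the neuronal members Kif3c and Kif5c (1.22 ± 0.27, adjusted p = 0.0469). Through these 4 steps 0 mitotic kinesins were called. Replicate numbers also paired the arrays of days 3 and 4, and the main fit did not use this pairing.

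Motors and subunits with other symbols were counted apart. Cenpe, the kinetochore kinesin, and Kifc1, the minus-end motor of the spindle, fell from day 4 to day 7 by 2.83 and 2.44 on the log2 scale. Klc1, a light chain that joins the Kif5 heavy chains to cargo, gave a log2 change of 2.89 (limma adjusted p = 0.00445). Kifap3, which completes the motor of Kif3a and Kif3b, passed on its adjusted p but not on its size, at 1.92-fold (0.94, adjusted p = 0.00253). Kifc2, a minus-end motor of neurons, had a course of its own: it fell from a mean of 10.52 at day 2 to 8.87 at day 3 and 5.19 at day 4, both called, and rose to 7.33 at day 7. Of the 10 genes measured in this list, 3 rose and 2 fell at the last step, where 8.81% and 6.58% of all genes did, the third that rose being Kifc3, from the background level.

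The proteins that work with these motors were counted from lists of the same kind. Of 15 partners in the spindle and in cytokinesis, 14 fell from day 4 to day 7, where 6.58% of all genes did, and 0 rose, with a median of -2.28. The largest falls were those of the cleavage furrow protein Anln (-3.76), of Aurkb (-3.54), which Kif20a carries, and of Ect2 (-2.79), which binds the complex of Kif23. Of 12 cargo adaptors, 3 rose, where 8.81% of all genes did, and 0 fell, with a median of 1.29. These were Sybu, an adaptor of Kif5 motors (at least 3.23-fold), Madd, which joins Kif1a and Kif1b to vesicles (2.72), and Mapk8ip2, which joins kinesin light chains to cargo (2.30). Of 10 subunits of dynein and dynactin, the motor that runs the other way, 2 rose, namely Dync1i1 (at least 6.17-fold) and Dctn2 (1.27). Against day 0, 9 of the 12 adaptors and 5 of the 10 dynein and dynactin genes were higher, where 14.3% of all genes were, and 0 of either list were lower.

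Agreement between probe sets could be read for 16 kinesins with at least 2 probe sets that reached the background level on 2 or more arrays. From day 4 to day 7, all such probe sets of a gene were called in 1 direction for 5 of the 16, none was called for 4, and some were called for 7. These 7 were Kif1a, Kif1b, Kif3a, Kif3b, Kif5b, Kif5c and Kif11. No gene had probe sets called in opposite directions, in this or in any of the other 5 comparisons. The value of 12 kinesins rests on a single probe set, among them Kif4, Kif18b, Kif20a, Kif7, Kif15 and Kif26a.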

How the data were processed

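RNA from HBG3 cultures was amplified and hybridized to 18 Affymetrix mouse arrays by the authors. The authors deposited 1 log2 signal for each probe set and array, from a joint GCRMA run that corrects background, normalizes by quantiles and summarizes the probes. They run from 2.24 to 15.6 and were used as deposited. Control probe sets (64 of 45101) were left out. Gene symbols came from the platform annotation: 34945 probe sets had 1 symbol, 932 several and 9160 none here, and 1 that pairs a kinesin with another gene was left out.

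limma 3.58.1 in R 4.3.3 (lmFit, eBayes) fitted 6 stage means to 18 arrays, with 12 residual and 0.515 prior degrees of freedom. The adjusted p threshold was 0.01 and the fold threshold 2, on the brightest probe set of a gene. Errors of changes are limma's standard errors. The script was tested on simulated data. The number of arrays limits the precision. A fold against a stage with every array under 4 is a lower bound, with that mean set to 4. Standard errors near the lowest values can be too small.

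Members, role lists, partner lists, markers and tests were chosen with earlier results of these data known. Per-array values are given for up to 6 called members per role with the largest changes, members called in another step, mitotic members that were not lower, transport members that were lower, and the Kif1, Kif2, Kif3, Kif5 and Kif21 relatives. For partner lists up to 3 called genes are named, with Klc1 and Kifap3. Some genes of the lists were not analysed here. Promoter windows are those of RefSeq, build GRCm38.p6, read with Python 3.11.15 and pandas 2.3.3, and figures were drawn with matplotlib 3.10.9. The protein comparison that had been planned was not run, as no protein table was used here.

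Pairing by replicate number was checked by the correlation, over all probe sets, of the deviations of same-numbered arrays from their stage means. It was 0.48, 0.35 and 0.48 between day 2 and day 3, and 0.64, 0.42 and 0.75 between day 3 and day 4. These arrays were taken as paired, but the fit behind the calls had no replicate term and did not use the pairing.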

Additional observations from a re-analysis of the deposited data

Results flagged for a closer look

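In the day 2 group, the one stage with enough arrays for such a check, 28 kinesins were examined for an array far from the rest, and 2 had one. Chance alone gives about 1 in 20. Kif18a gave 8.61 on day 2 replicate 4, where the other day 2 arrays lay between 9.21 and 9.29. Kif26a gave 8.28 on day 2 replicate 3, where the other day 2 arrays all gave 8.42.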

How the results depend on the processing

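The number of arrays and the background level limit these values, and stages with few calls are the ones that depend on the settings. In none of the alternatives run did a called kinesin change direction. For day 7 against day 4 the count of 17 went to 9 (4 higher, 5 lower) with the arrays of these 2 stages alone, which lost Kif18a, Kif20a, Kif20b, Kif2c, Kif4, Kif3b, Kif21b and Kif26b and kept the other 9. For day 7 against day 0 the same restriction took 20 to 15 (6 higher, 9 lower). Leaving out each array in turn gave 15 to 17 there, 19 to 20 for day 7 against day 0, 0 to 1 for day 2 against day 0, 0 to 1 for day 3 against day 2, and 0 in every fit for 8 h of RA and for day 4 against day 3. The loss of Kif3a in day 3 against day 2 came without day 2 replicate 1, 2 or 3 or day 3 replicate 1 or 2, and without day 2 replicate 2 Kif21a was called. In day 2 against day 0, Kif5c was called without day 0 replicate 3 and Kif21a without day 2 replicate 4. Kif3b in day 7 against day 0 lost its call in 5 of 6 such fits, with adjusted p up to 0.0442.

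With an adjusted p under 0.05, 2 kinesins were called in day 2 against day 0 (Kif21a and Kif5c), 3 in day 3 against day 2 (Kif3a, Kif1b and Kif21a) and 2 in day 4 against day 3 (Kif3c and Kif5c). With dim probe sets left out, 2 were called in day 2 against day 0 and 3 in day 3 against day 2. For day 2 against day 0, median centring gave 1 (Kif5c) and probe sets averaged per gene gave 1 (Kif21a). Quantile normalization gave 1 in day 4 against day 3 (Kif3c). With the arrays of the 2 stages alone, 0 were called in day 3 against day 2. With probe sets of s, x or a suffix left out, Kif22 in day 7 against day 4 changed by -2.36 with an adjusted p of 0.0101 on its next probe set. The causes were not tested.

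With the replicate number as a block over all arrays, 2 kinesins were called in day 2 against day 0 (Kif21a and Kif13b), 1 after 8 h of RA (Kif13b), 3 in day 3 against day 2, and 18 in day 7 against day 4, where Kif1a (adjusted p = 0.0122) and Kif21b (adjusted p = 0.0623) were lost and Kif13b (lower), Kif7 (lower) and Kif26a (higher) were added. The block in a fit of days 2 and 3 alone gave 0. The numbers did not pair the arrays of day 0 and day 2 (0.21, -0.20 and -0.13) or of day 2 and RA (-0.22 and -0.45), and day 7 shares only replicate 3 with days 0 and 4.

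Chosen after seeing the data were fits with day 2 replicates 1 and 2 only, which called 1 in day 2 against day 0 (Kif21a) and 0 in day 3 against day 2, and with day 2 replicates 3 and 4 only, which called 1 and 2. Kif1a is among the latter in both steps, but its high values on these arrays were known when they were kept, so its calls there are no test.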
